A study of Mus musculus with 3 samples.

Results

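The immunity-related GTPases (IRG proteins) are interferon-induced enzymes that defend mouse cells against microbes living inside vacuoles. The family was taken by name as 6 genes, Irgm1, Irgm2, Igtp, Iigp1, Tgtp1 and Tgtp2, and each of the 6 symbols was found among the 44788 genes of the count table. The members were proposed with the values of these libraries known, so their difference between genotypes is described here without a test. Further family members, such as Ifi47, were kept apart as a comparison list.

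RNA was sequenced from primary chondrocytes, the matrix-making cells of cartilage, isolated from the knee joints of C57BL/6 mice. Both groups carried floxed Kdm6b, which encodes an eraser of the silencing methyl marks on lysine of histone H3. The cKO group (Col2a1-CreERT2;Kdm6bf/f, 2 libraries) also carried a tamoxifen-activated recombinase driven by the Col2a1 promoter, and the control group (Kdm6bf/f, 1 library) did not. Culture was in F12 medium plus 10% fetal bovine serum, and 4-hydroxytamoxifen (1 µM, 48 h) was added to every culture, the control included. Neither the age of the mice nor the number of animals behind a library is stated in the labels. The comparison asks how transcripts differ between chondrocytes with and without the recombinase, and with the lone control it cannot separate the genotype from anything else particular to that culture.

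IRG proteins fall into 2 classes, named after residues in their nucleotide-binding loop. The GMS class (Irgm1, Irgm2 and Igtp, also called Irgm3) sits on the cell's own membranes and restrains the others. The GKS class (Iigp1, also called Irga6, and Tgtp1 and Tgtp2, both known as Irgb6) holds the effectors, which coat the membrane of a pathogen's vacuole and break it. Interferons act on these genes through transcription factors that bind short DNA motifs near gene starts, known as GAS elements and interferon-stimulated response elements (ISRE).

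The DNA before the RefSeq transcript starts of 4 members holds the same pair of motifs. RefSeq windows on GRCm38.p6, from 250 bases before to 50 bases after the transcript start, were given for 5 members, all on chromosome 11. Stretches of them are printed because they hold the letters of these motifs. Each stretch runs 5′ to 3′ along the gene's own strand, and the first 4 are aligned on the ISRE letters. Capitals mark matches to the ISRE core (GAAA, any 2 bases, GAAA) and to the GAS letters TTCNNNGAA. RefSeq and GENCODE do not place all starts alike: the stretches of Tgtp2 and Igtp lie outside their GENCODE M21 genes, whereas those of Irgm2, Tgtp1 and Irgm1 lie inside them, downstream of the outermost GENCODE start.
Irgm2 (chr11:58214868-58214936, plus strand): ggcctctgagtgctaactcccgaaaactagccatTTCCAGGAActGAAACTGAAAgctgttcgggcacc
Igtp (chr11:58199477-58199545, plus strand): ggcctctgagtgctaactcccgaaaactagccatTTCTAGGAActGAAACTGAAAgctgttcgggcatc
Tgtp1 (chr11:48992300-48992368, minus strand): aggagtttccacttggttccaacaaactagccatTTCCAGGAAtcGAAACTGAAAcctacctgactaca
Tgtp2 (chr11:49064259-49064327, minus strand): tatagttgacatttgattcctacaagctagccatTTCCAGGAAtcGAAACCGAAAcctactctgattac
Irgm1 (chr11:48871429-48871458, minus strand): tgtttcaaGAAATAGAAACCGAAActgatt

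In Irgm2, Igtp, Tgtp1 and Tgtp2, GAS letters ended 2 bases before the ISRE letters began. Irgm1 held overlapping ISRE matches, the first of them starting 30 bases before its start site, and no GAS match in its window. On either strand, the ISRE core occurred in 3.44% of all 32851 RefSeq windows of this length, GAS letters in 8.30%, and both in 0.454%. The joined pattern, GAS letters followed by 2 bases and the ISRE core, was written down after these windows had been read and occurred in 5 of the 32851 windows (0.0152%). These were the 4 members named and Gm12185, another gene of the family, which did not pass the test (11, 15 and 1 counts, edgeR adjusted p = 0.105). Of 7 windows given for other family genes, 3 held the ISRE core and 2 held GAS letters. The windows of Ifi47, Gm5431, 9930111J21Rik2 and Irgq held neither. Of these, Irgq did not pass in edgeR and the others rose. Those that rose reached the filter on low counts only through the cKO libraries, and 9930111J21Rik2 did not pass in DESeq2. No link between motif and rise is read from these windows. The stretches of Igtp and Irgm2 were identical at 67 of 69 bases, and those of Tgtp1 and Tgtp2 at 51 of 69. Across all 4 aligned stretches, 34 of 69 bases were the same. Bases were compared position by position without gaps. The fixed motif letters are the same by the choice and alignment of the stretches. A match in letters does not show that a factor was bound.

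**Figure D1:**
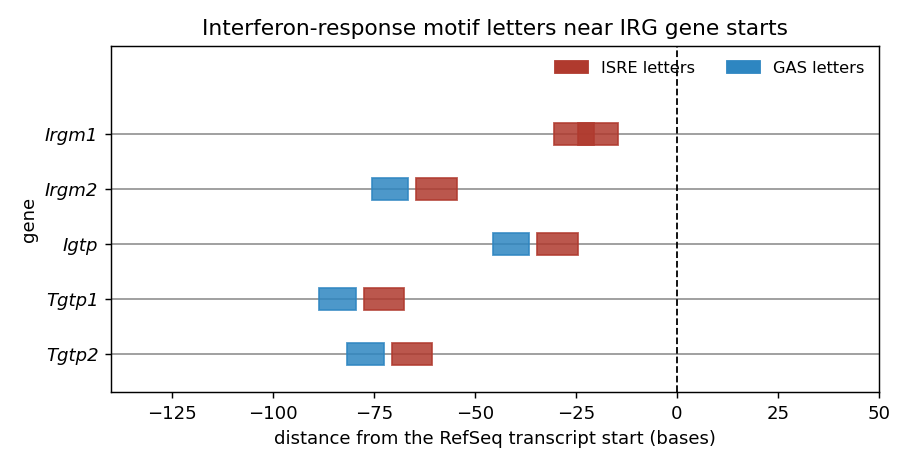
Positions of ISRE letters (red) and GAS letters (blue) on the x axis, in bases from the RefSeq transcript start (dashed line), for 5 IRG genes on the y axis. The GAS box lies 2 bases before the ISRE box in Irgm2, Igtp, Tgtp1 and Tgtp2, and Irgm1 has overlapping ISRE boxes alone.

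The libraries were close in depth, between 12489738 and 12636471 counts. Counts of Kdm6b itself were 1049 and 948 under cKO against 1289 for the control library (log2 -0.39 ± 0.14 SE, edgeR adjusted p = 0.138), a gene-level sum that also takes in exons outside the floxed part. Among 9 chondrocyte markers 8 fell in edgeR, where 1.9% of all genes tested did. Col2a1 (0.609-fold) was the marker that did not pass there, though DESeq2 and limma-voom called it lower. Sox9 and Matn3 did not pass in DESeq2. Col2a1 was abundant in every library, at 12512, 11970 and 20091 CPM in cKO replicate 1, cKO replicate 2 and the control. CPM values are counts scaled to the library's normalised total. Xist is the RNA of the inactive X chromosome. It was counted 2 times in cKO replicate 1, 10081 times in replicate 2 and 1 time in the control. Sex-linked RNA thus sets the cKO replicates apart. All 6 IRG genes are autosomal, and whether sex bears on their levels was not tested. Every count of genes called below comes from the fit after the filter on low counts; without that filter edgeR called 0 of 24051 genes, with 1829 at an unadjusted p under 0.05, where DESeq2 called 310 and limma-voom 826 after filtering.

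All 6 IRG transcripts lay above the control in both cKO libraries, as did 36.6% of all genes tested. Their counts summed to 7202 in cKO replicate 1, 7105 in replicate 2 and 461 in the control, which is 578, 554 and 37.1 CPM. The summed level was 15.2-fold higher in cKO (exact 95% binomial interval 13.9 to 16.8). Such intervals cover counting error only, and none of them includes the variation between control cultures. In bulk RNA, more cells that express a gene and more RNA per cell cannot be told apart.

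Among the GMS class, Irgm1, which regulates the effectors and has been linked to autophagy, was the member with the most counts. Its counts of 2927 and 3141 under cKO stood against 255 for the control library (235, 245 and 20.5 CPM). Its level was 11.7-fold higher in cKO (interval 10.3 to 13.3). Irgm2, which resides mainly at the Golgi, was counted 1664 and 1705 times under cKO against 139 for the control library (133, 133 and 11.2 CPM). It was 11.9-fold higher (interval 10.0 to 14.2), so the 2 Irgm genes differed by nearly the same factor. Igtp, a regulator found on the endoplasmic reticulum and lipid droplets, reached 1537 and 1282 counts under cKO against 59 for the control library (123, 100.04 and 4.75 CPM). Its 23.5-fold difference (interval 18.1 to 30.9) lay above the intervals of Irgm1 and Irgm2.

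The GKS effectors were nearly absent from the control library. Iigp1, the effector on chromosome 18, reached 925 and 802 counts under cKO against 8 for the control library (74.2, 62.6 and 0.644 CPM). It was 106-fold higher in cKO (interval 53.7 to 246), the widest interval among the members with control counts. Tgtp1 was counted 90 and 97 times under cKO (7.22 and 7.57 CPM) and was at 0 in the control. With the control set to the limit of 3 counts, Tgtp1 was at least 30.6-fold higher. Tgtp2 was counted 59 and 78 times under cKO (4.73 and 6.09 CPM) against 0, at least 22.4-fold higher on the same footing. For each of these 3 genes both cKO values lay above the control value, as they did for 36.6% of all genes tested.

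**Figure D2:**
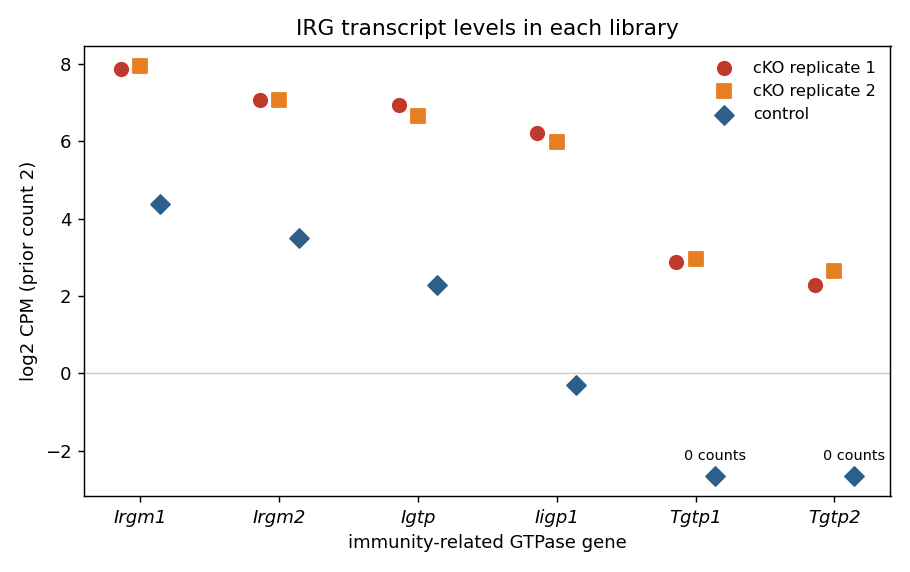
Level of each IRG gene (x axis) as log2 CPM with a prior count of 2 (y axis), with 1 point per library; circles and squares are the cKO libraries and diamonds the control. Each cKO point lies above the control point of the same gene, and the control points of Tgtp1 and Tgtp2 stand for 0 counts, so their height is set by the prior count.

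Tgtp1 and Tgtp2 are near copies, and their values are best read together. Of all 100-base windows in the annotated Tgtp1 transcripts, 70.3% also occur in a Tgtp2 transcript, and 76.8% of Tgtp2 windows occur in Tgtp1. The labels do not say how reads from such windows were assigned. The pair summed to 149 and 175 counts under cKO against 0, or 11.9 and 13.7 CPM against a limit of 0.242 CPM, which is at least 53.1-fold higher. For the other members the overlap was small: 5.16% of Igtp windows and 3.01% of Irgm2 windows were shared between them, and Iigp1 and Irgm1 shared 0%. Igtp and Irgm2 also have 162 bases of annotated exon in common on the same strand.

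On the log2 CPM scale with a prior count of 2, the median difference of the 6 members was 4.81, against -0.01 over all 15529 genes tested. The median was 4.797 in cKO replicate 1 and 4.823 in cKO replicate 2, and 4.49 with Tgtp1 and Tgtp2 set at their lower bounds. All 6 members passed the filter on low counts, 3 of them (Iigp1, Tgtp1 and Tgtp2) only through the cKO libraries, and 6 of 6 were at least 10-fold above the control in both cKO libraries, a mark reached by 0.515% of the genes tested. edgeR called 4.91% of all genes tested, 3.01% as higher and 1.9% as lower in cKO, and DESeq2 called 1.58% as higher. Since these values were known when the members were chosen, nothing is read from the members' counts.

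The mix of IRG transcripts differed between the genotypes. GMS regulators made up 98.3% of IRG counts in the control (exact 95% binomial interval 96.6 to 99.2) and 85.1% and 86.2% in the cKO libraries. Effectors made up 1.74% in the control (interval 0.752 to 3.39), against 14.9% (14.1 to 15.8) and 13.8% (13.0 to 14.6) in cKO. Irgm1 alone supplied 55.3% of the control's IRG counts and 40.6% and 44.2% of those in cKO. The share of Igtp was 12.8% in the control and 21.3% and 18.04% in cKO. These shares restate the unequal differences above, and they rest on the 461 control counts.

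**Figure D3:**
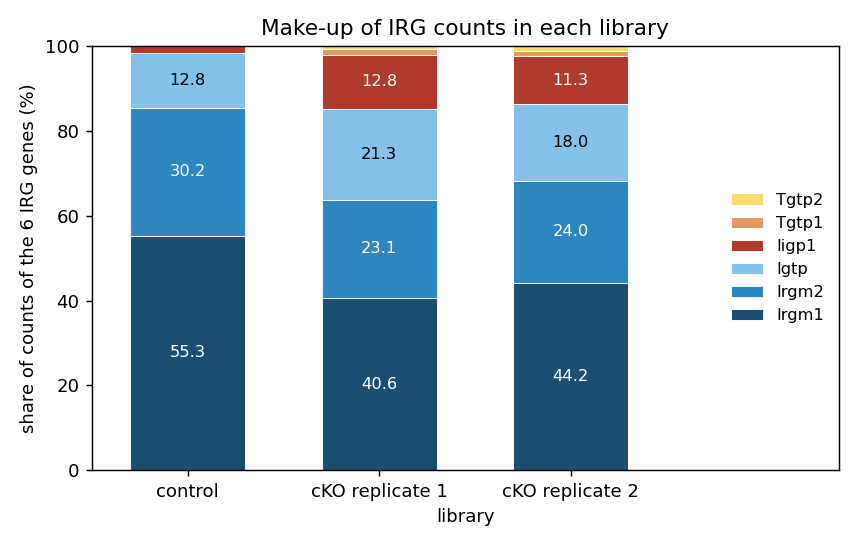
Share of the counts of the 6 IRG genes taken by each gene, in percent (y axis), for each library (x axis). Blue segments are the GMS regulators and red to yellow segments the GKS effectors, which take 1.74% in the control and 14.9% and 13.8% in the cKO libraries.

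Per length, the order of the genes was the same in both cKO libraries. Scaled to the longest annotated coding transcript, Irgm1 lay at 104 and 109 CPM per kb in cKO, above Igtp at 61.0 and 49.5, Irgm2 at 37.8 and 37.7, and Iigp1 at 23.8 and 20.1. Tgtp1 and Tgtp2 followed at 2.56 and 2.68 and at 1.68 and 2.17 CPM per kb. In the control the order was Irgm1 at 9.09, Irgm2 at 3.17, Igtp at 2.35 and Iigp1 at 0.206 CPM per kb, so Igtp and Irgm2 stood in the other order there, a change of rank that was not tested. The lead of Irgm1 in cKO depends on the length used, because GENCODE adds a longer processed transcript, without a coding sequence, to its gene model. Over all annotated exons Igtp came first, at 61.0 and 49.5 CPM per kb, against 40.4 and 42.2 for Irgm1. No order is read between Tgtp1 and Tgtp2, whose transcripts share most of their sequence.

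The cKO libraries lay closer to each other than to the control for every member. The ratio of cKO replicate 2 to cKO replicate 1 was 1.04 for Irgm1 (exact 95% binomial interval 0.993 to 1.10) and 0.997 for Irgm2 (0.931 to 1.07). It was 0.844 for Iigp1 (0.767 to 0.928) and 0.812 for Igtp (0.753 to 0.875), so these were lower in replicate 2 by more than counting error. For the low counts of Tgtp1 and Tgtp2 it was 1.05 (0.779 to 1.41) and 1.29 (0.906 to 1.84), intervals that included 1.

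The genes whose profile over the 3 libraries lay nearest to the mean IRG profile were interferon-induced genes of other families. By Euclidean distance between centred log2 CPM values, taken over 11334 genes with a mean of 5 CPM or more, they were Apol9a (0.0949), Ifit3 (0.0964), Ifi44 (0.130), Rtp4 (0.134), I830012O16Rik (0.145) and Parp14 (0.148). Their folds ran from 25.2 for Rtp4 to 31.2 for Ifi44. The members themselves lay between 0.307 (Igtp) and 1.34 (Iigp1) from their own mean, farther than any of these genes.

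The members lie in clusters, and the neighbouring genes allowed a comparison within each. On GRCm38 (GENCODE M21), Irgm1 lies on chromosome 11 from 48861968 to 48871683 (minus strand), Tgtp1 from 48985327 to 48994172 and Tgtp2 from 49057194 to 49064206 (both minus strand). Igtp, from 58199556 to 58207591, and Irgm2, from 58199618 to 58222782, form a separate pair on the plus strand of the same chromosome. Within 200 kb of a member, 19 genes that were neither members nor on the comparison list of the family were tested. Of these, 1 rose in edgeR and 0 fell, where 3.01% of all genes tested rose and 1.9% fell, and 2 had an unadjusted p under 0.05. In DESeq2 the same gene passed. It was BC023105, which with 1 control count could only have been called higher. It is annotated as a processed pseudogene, lies 49.1 kb from Iigp1 and was counted 60 and 48 times under cKO against 1 (53.1-fold, interval 9.32 to 2115). Whether BC023105 derives from an IRG gene was not examined, so it may not stand outside the family. The median log2 difference of the 19 was 0.01. Trim41 and Trim7, beside Irgm1, and Gemin5 and Mrpl22, beside Igtp, did not pass the test; they are named for their position and were picked after their values were seen.

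**Figure D4:**
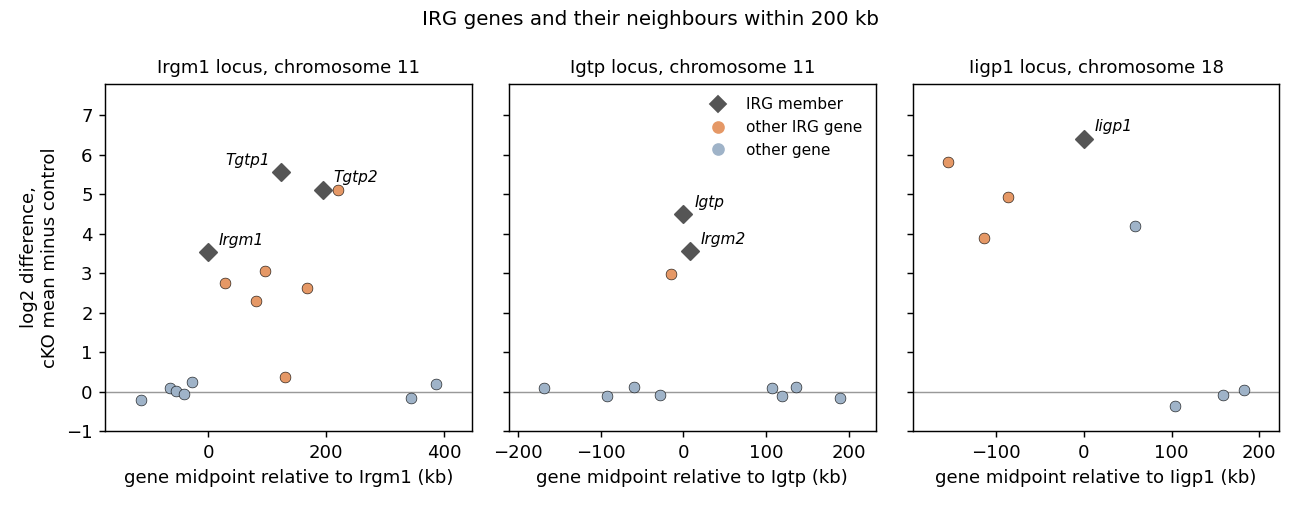
Log2 difference between the cKO mean and the control (y axis) for IRG members (diamonds), other IRG genes (orange) and other tested genes (pale blue) by the distance of their midpoint from a member in kb (x axis), in 3 loci. Genes on neither family list lie near 0, except BC023105 in the Iigp1 locus.

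Other genes of the family were tested in the same fit. Of 11 tested, 8 rose, 0 fell and 3 did not pass (3.01% of all genes tested rose), and their median log2 difference was 2.99. DESeq2 called 5 higher. Of the 11, 9 reached the level of the filter only in a cKO library, among them all 8 that rose, so the filter partly fixed this count and it is not read as support. Of the 2 that also reached it in the control, 0 rose. Ifi47, the effector also called Irgd, lies beside Tgtp2 and rose to 16.4 ± 1.42 CPM (SD, n = 2) from 0.322 CPM (log2 5.63 ± 0.44 SE, edgeR adjusted p = 4.04e-09). Gm12250, also called Irgb10, rose from 1 count in the control to 23 and 21 in cKO (adjusted p = 0.0147 in edgeR), a fold of 21.6 with an interval of 3.68 to 873. In DESeq2 Gm12250 did not pass (adjusted p = 0.384), and it is listed as a pseudogene in GENCODE M21. Near Iigp1 on chromosome 18, Gm4951 was counted 166 and 173 times under cKO against 1, F830016B08Rik had 116 and 70 against 1, and Gm4841 had 34 and 55 against 1, and all 3 rose. Their folds were 167 (interval 29.7 to 6597), 91.4 (16.2 to 3628) and 43.7 (7.65 to 1746). Irgq, a divergent relative without a known role in interferon responses, lay at 62.4 and 61.7 CPM under cKO against 64.2 CPM (edgeR adjusted p = 0.926); it was singled out after its value was seen.

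The guanylate-binding proteins (GBPs) are larger interferon-induced GTPases that act with IRG proteins at vacuoles. The table holds 11 of them, of which 7 were tested and 7 rose (3.01% of all genes tested did), with a median log2 difference of 4.00. Gbp5, Gbp6, Gbp9 and Gbp10 passed the filter only through the cKO libraries, so a rise was the likelier call for them and the count is not read as support. Gbp2, Gbp3 and Gbp7 also reached the filter in the control. Gbp2 rose 13.1-fold, Gbp7 14.9-fold and Gbp5 9.90-fold, while Gbp3 rose 79.9-fold (interval 49.8 to 137) from 17 control counts and Gbp6 54.4-fold from 6. Gbp9 and Gbp10 had 0 control counts and were at least 11.6-fold and 10.3-fold higher. Gbp9 had 53 counts in cKO replicate 1 and 18 in replicate 2, and its bound was 5.82-fold without replicate 1 and 17.6-fold without replicate 2. Of these 7, Gbp10 did not pass in DESeq2 (adjusted p = 0.0521). Reads of near-identical Gbp copies may have been divided in ways the counts do not show.

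Genes for interferon signalling were mixed, and the receptors did not pass the test. Of 16 tested genes for interferon receptors and signalling, 5 rose, 0 fell and 11 did not pass (3.01% of all genes tested rose), with a median log2 difference of 0.26. Irf9, a DNA-binding factor of the type I interferon response, rose 3.91-fold, to 127 ± 3.65 CPM (SD, n = 2) from 32.5 CPM, and its partner Stat2 rose 9.01-fold. Irf1, an activator of IRG genes, rose 2.04-fold in edgeR (adjusted p = 0.00328) but did not pass in DESeq2 (adjusted p = 0.0848). Usp18, which limits signalling from the type I interferon receptor, rose 77.1-fold. The receptor genes Ifnar1, Ifnar2, Ifngr1 and Ifngr2 had log2 fold changes of -0.00, -0.08, -0.14 and -0.08 in that order (SE 0.14 to 0.17); they were chosen by role after their values were seen.

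Transcripts of the interferons themselves were at or near 0 in every library. Of 19 ligand genes in the table, 16 had no count, among them Ifng, and Ifnb1 had 1, 1 and 0 counts in cKO replicate 1, cKO replicate 2 and the control. The whole list summed to 5, 2 and 1 counts in the same order, near the limit of 3 counts, so no difference was detectable at this depth. Genes known for their response to interferon-gamma were mixed: of 7 tested, 3 rose, 0 fell and 4 did not pass (3.01% of all genes tested rose), with a median log2 difference of 0.76. Cxcl10, a chemokine, rose 33.9-fold, Cd274, an immune checkpoint ligand that passed the filter only through cKO, 24.4-fold and Icam1, an adhesion molecule, 1.70-fold, although Icam1 did not pass in DESeq2 (adjusted p = 0.220). MHC class II genes, looked up after the other values were seen, did not lie at one level. H2-Ab1 had 414, 439 and 395 counts (edgeR adjusted p = 0.878), and H2-DMa and H2-DMb1 were counted and did not pass either. H2-Aa had no count in any library, and H2-Eb1 had 4, 5 and 9. Ciita, the activator of class II genes, was at 0, 1 and 0 counts, and Cd74, which it controls, had 3, 1 and 3.

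Genes for the ubiquitin-like conjugation system that directs IRG and GBP proteins to vacuoles were tested in the same fit. Of 20 tested, 1 rose (3.01% of all genes tested did), 0 fell and 19 did not pass, with a median log2 difference of 0.08. A single call among 20 is near the share over all genes and is no result about the list. The gene that rose was Trim21, itself an interferon-induced ubiquitin ligase, 7.99-fold to 47.0 ± 2.47 CPM (SD, n = 2) from 5.88 CPM. Ubb, a ubiquitin gene with the next smallest p, did not pass (log2 -0.39 ± 0.16 SE, edgeR adjusted p = 0.234).

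**Figure D5:**
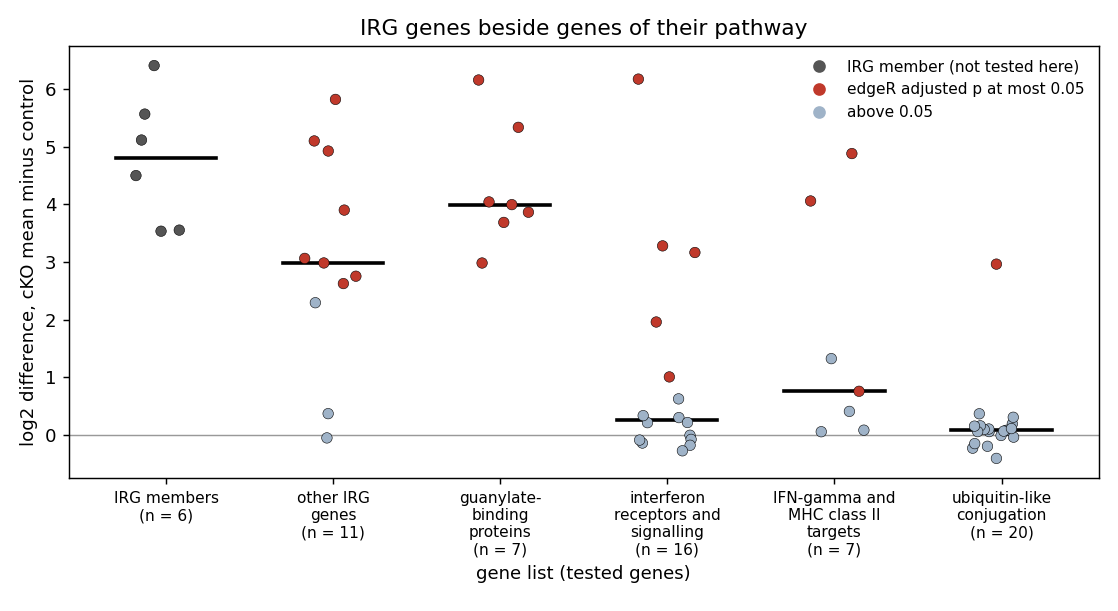
Log2 difference between the cKO mean and the control (y axis, log2 CPM with a prior count of 2) for each tested gene of 6 lists (x axis); bars mark list medians and red points passed edgeR at an adjusted p of at most 0.05. Medians are 4.81 for the members, 2.99 for other IRG genes and 4.00 for GBPs. They are 0.76 for interferon-gamma and MHC class II targets, 0.26 for receptors and signalling and 0.08 for the conjugation genes.

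Markers of other cell types were measured beside these results. Macrophage and leukocyte markers summed to 13.3, 13.3 and 8.05 CPM in cKO replicate 1, cKO replicate 2 and the control. Of 16 such markers in the table, 9 had a count and 7 were at 0 in all libraries, including Itgam, Tyrobp and Cd3e, and Ptprc had 1, 1 and 0 counts. Csf1r, a macrophage growth factor receptor, had 33 and 28 counts under cKO against 8 (3.75-fold, interval 1.79 to 9.07, edgeR adjusted p = 0.0835). Csf1r passed the filter on low counts only through the cKO libraries, so a higher value was the likelier outcome for it. Cd68, a lysosomal protein abundant in macrophages, had 59 and 57 against 32 (1.78-fold, interval 1.20 to 2.72, edgeR adjusted p = 0.293). The others tested were Cd14, with 43 and 62 counts against 38 (1.36-fold, interval 0.928 to 2.02), and Lyz2, with 21 and 18 against 19 (1.01-fold, interval 0.569 to 1.85). Of the 4 tested, 0 passed in edgeR, 0 rose in limma-voom or DESeq2, and the unadjusted p was under 0.05 for Csf1r and Cd68. Fibroblast and synovial markers summed to 20572, 18612 and 21074 CPM. Of 9, 3 rose in edgeR (3.01% of all genes tested did), Cd55, Thy1 and Prg4, of which 1 rose in DESeq2. Thy1 differed between the cKO libraries, at 623 and 259 counts against 139. Of the 6 that did not pass, Postn (0.822-fold), Col3a1 (0.820-fold) and Col1a2 (0.891-fold) lay below the control in both cKO libraries. Col1a1, Pdgfra and Pdgfrb lay above it. Endothelial markers summed to 1.28, 0.390 and 0.242 CPM. The part of such cells, and of the lower chondrocyte markers, in the IRG levels was not tested.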

How the data were processed

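The authors deposited whole-number read counts per gene symbol, 1 column per library, from rRNA-depleted Ion Proton libraries, per the labels' protocols. GRCm38 and GRCh37 stand, with no role, among the builds in the submitters' processing notes; for aligner, counter, annotation and strand, the sources used here give nothing. Counts were fitted with edgeR 4.0.16 (R 4.3.3): filterByExpr (15529 of 44788 genes kept), TMM, quasi-likelihood F test, Benjamini-Hochberg adjustment over all genes, threshold 0.05. The fit has 1 residual degree of freedom, so the control is assumed to vary like the cKO pair, and it leans on 19.9 prior degrees of freedom. DESeq2 1.42.0 and limma-voom 3.58.1 were alternatives, and the scripts were tested on simulated data. CPM values are counts scaled to the TMM-normalised library size; the SE of a log2 fold change was derived from it and its F value. Folds are ratios of pooled normalised counts, with exact 95% binomial intervals for counting error; a control of 0 was set to 3 counts. The labels do not say which animals or cultures the libraries came from. By Xist, cKO replicate 2 holds female RNA that cKO replicate 1 all but lacks. Whether any animal contributed to both is not known. The p-values rest on the spread between these 2 cKO libraries alone. Members and lists were chosen with earlier results of these data known. The genes named are the members, up to 6 genes per list by smallest p and those at 0 in the control, the 6 genes nearest in profile, and neighbours within 200 kb; exceptions are marked, and 1 gene of the signalling list is not reported here. Transcript and promoter sequences are from GENCODE M21 and RefSeq (GRCm38.p6).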

Additional observations from a re-analysis of the deposited data

How the results depend on the processing

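The member differences rest on a lone control library, with 8 counts for Iigp1 and 0 for Tgtp1 and Tgtp2, so the size of the effector folds is limited by depth in that library. Over 30 recalculated member differences, 30 were positive, from 3.51 to 7.55 on the log2 scale. All used the same control library and members chosen with these values known, so their sign is not read as support. The members' median of 4.81 became 5.59 with a prior count of 0.5, which raises genes at 0 in the control, and 4.50 with Tgtp1 and Tgtp2 summed as 1 gene, which leaves 5 values. Leaving out either cKO library gave 4.797 to 4.823. The count of genes called over all genes, 762, was 310 in DESeq2 (226 higher, 84 lower), and 87 when only 3 prior degrees of freedom were allowed. Without the expression filter edgeR called 0 of 24051 genes, while 1829 had an unadjusted p under 0.05, so it also called 0 in each pathway list; the cause was not tested. The 8 other IRG genes called became 5 in DESeq2 and 2 with 3 prior degrees of freedom, the 7 GBPs became 3, and the 3 genes responsive to interferon-gamma became 1 with that setting. The edgeR calls with the older quasi-likelihood method, an alternative chosen after seeing the data, numbered 796. Without either cKO library the fit has no residual degrees of freedom, so list counts were not recomputed. No interferon ligand passed the filter. No paired analysis was possible because the control has no replicate number and the groups share fewer than 2 numbers.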
